A study of Mus musculus with 8 samples.

Results

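The 35 genes described here encode the enzymes that make and recycle glutathione, join it to other molecules, or spend it on peroxides and protein disulfides. They were taken from a list of mouse gene symbols and fall into 5 classes: 4 alpha-class transferases, 7 mu-class transferases, 11 other transferases, 5 genes of synthesis and recycling, and 8 peroxidases and glutaredoxins. Of 39429 probes on the array, 49 carried a transcript accession of 1 of these genes, and they covered 34 of the 35 (20659 genes had a probe in all). No probe was matched by accession to Gsta1, so it was not analysed. All 34 genes passed the filter on dim probes, as did 14476 genes of the whole array, and 48 of the 49 probes were kept.

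RNA came from primary cultures of kidney proximal tubule cells, which recover most solutes from the glomerular filtrate, prepared from the cortex of male C57/BJ mice 6 weeks of age and grown to confluence. Cells of the treated group received 1 µM GW4064, a synthetic agonist of the bile acid receptor FXR, for 24 h (4 samples). Cells of the control group received the vehicle DMSO for the same time (4 samples). Both were kept in serum-free DMEM during treatment, and neither group was labelled with a genetic change. The comparison asks which transcripts the agonist changed in these cells. Whether replicates were separate animals or cultures is not labelled; the p-values therefore reflect only how these 8 samples varied, and that variation may be technical.

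Glutathione is a tripeptide of glutamate, cysteine and glycine, built by glutamate-cysteine ligase and then glutathione synthetase. Transferases attach it to electrophiles, peroxidases oxidise it while reducing peroxides, and glutathione reductase restores the reduced form with NADPH. The proximal tubule takes up filtered glutathione after breaking it down at the brush border, and many genes of the pathway are known targets of the transcription factor NRF2, which binds antioxidant response elements.

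Promoter windows are shown for 5 of the genes that rose, to place the antioxidant element core beside the measured changes. Each window runs from 250 bases before to 50 bases after the annotated transcript start (RefSeq, build GRCm38.p6), and 30 of the 35 genes had at least 1. Gsta4, Gstt2, Gclc, Gsr and Oplah had none in the table used here. Capitals mark matches to TGACNNNGC, the core of the antioxidant response element, searched on both strands. The Gclm window lies at chr3:122245307-122245606 (plus strand), the Gsta3 window at chr1:21240335-21240634 (plus strand) and the Mgst1 window at chr6:138140277-138140576 (plus strand). Those of Gsta2, at chr9:78347096-78347395 (minus strand), and Gpx1, at chr9:108338830-108339129 (plus strand), held no match.
Gclm: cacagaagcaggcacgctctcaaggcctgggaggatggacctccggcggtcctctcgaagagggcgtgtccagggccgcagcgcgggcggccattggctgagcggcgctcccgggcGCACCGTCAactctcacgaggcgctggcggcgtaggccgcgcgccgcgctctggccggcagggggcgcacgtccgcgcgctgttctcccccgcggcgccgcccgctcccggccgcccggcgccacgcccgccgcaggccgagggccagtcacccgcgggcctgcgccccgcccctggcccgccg
Gsta3: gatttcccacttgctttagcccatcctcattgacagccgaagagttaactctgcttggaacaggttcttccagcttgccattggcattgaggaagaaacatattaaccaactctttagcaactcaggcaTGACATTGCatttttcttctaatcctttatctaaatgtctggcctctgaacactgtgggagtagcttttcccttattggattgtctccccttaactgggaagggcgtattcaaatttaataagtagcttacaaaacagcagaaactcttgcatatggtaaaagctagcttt
Mgst1: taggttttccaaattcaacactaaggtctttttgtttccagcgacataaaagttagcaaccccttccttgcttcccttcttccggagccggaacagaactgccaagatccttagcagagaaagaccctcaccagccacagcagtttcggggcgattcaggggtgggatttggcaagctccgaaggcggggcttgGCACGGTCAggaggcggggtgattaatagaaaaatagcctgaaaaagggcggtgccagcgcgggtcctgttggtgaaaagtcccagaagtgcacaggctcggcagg
Gsta2: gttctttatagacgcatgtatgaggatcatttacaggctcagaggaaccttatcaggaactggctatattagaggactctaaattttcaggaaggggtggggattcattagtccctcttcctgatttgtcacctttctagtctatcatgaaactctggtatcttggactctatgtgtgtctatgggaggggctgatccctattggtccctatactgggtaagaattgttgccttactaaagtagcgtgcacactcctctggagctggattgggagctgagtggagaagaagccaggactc
Gpx1: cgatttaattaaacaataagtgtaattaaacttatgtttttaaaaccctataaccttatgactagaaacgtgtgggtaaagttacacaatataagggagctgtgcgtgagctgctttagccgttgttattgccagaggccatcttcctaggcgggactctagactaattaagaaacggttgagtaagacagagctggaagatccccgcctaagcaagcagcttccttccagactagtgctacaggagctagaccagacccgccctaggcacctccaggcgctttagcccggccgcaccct
The match began at -134 in Gclm, at -121 in Gsta3 and at -56 in Mgst1, counted from the transcript start at 1 with no base 0. In Gsta3 it read along the gene's strand, and in Gclm and Mgst1 it lay on the opposite strand. Among members that rose, 3 of the 12 with a window held the core (25%), against 2 of the 17 with a window that did not rise (11.8%), and 14% of the 27025 genes with a promoter window in the table held it. The other 2 matches were in Gstm5 and Gstm7. The 3 that rose with a match include Mgst1, whose other window held none and whose call was lost in 16 of 23 other settings. All 3 matching windows of genes that rose are printed above, but only some of those without a match. The FXR site is an inverted repeat of AGGTCA with 1 base between the copies. Searched as exact letters, it was in 0 of the 30 members' windows and in 3 of the 27025 genes (0.0111%). With so rare a match, 0 among 30 members says nothing about FXR sites in these genes. These matches are descriptions of letters in a short window.

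The arrays were measured at 61.4% to 65.7% of probes well above background and no spot was saturated. The array's 75th percentile of processed signal averaged 1412 ± 207 in GW4064 samples and 1626 ± 187 in DMSO samples (SD, n = 4 each). The 8 arrays lay on 2 slides, each with 2 GW4064 and 2 DMSO arrays, and scans split the arrays in the same way. On both slides GW4064 samples took the last places and DMSO samples the first, so place on the slide and treatment cannot be told apart. The agonist's known targets moved: Slc51a, a subunit of the basolateral bile acid transporter, was 120.6-fold higher (log2 fold change 6.91 ± 0.16 SE) and its partner Slc51b 10.6-fold higher (3.40 ± 0.07). Fabp6, an intracellular bile acid carrier, was well above background on all 4 GW4064 arrays and on 0 of 4 DMSO arrays. Its probe passed the filter on dim probes only through the GW4064 arrays, so it had to differ and is given as a description. The FXR gene itself, Nr1h4, was lower (log2 fold change -0.45 ± 0.05).

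Most glutathione genes that moved were higher with GW4064. Of the 34 tested, 15 rose, 3 fell and 16 did not pass an adjusted p of 0.05 in limma (Benjamini-Hochberg over all 14476 genes). That is 52.9% past the threshold, against 20.8% of all tested genes, and 44.1% higher, against 11.8% of all genes. The share that fell, 8.82%, was near that of all genes, 8.95%. The members were chosen with earlier results of these data known, and the part of that choice in these shares was not tested. The median log2 fold change of the 34 was 0.16, against 0.01 over all tested genes, and 26 of the 34 were above 0. GW4064 and DMSO arrays were fully separated for 18 of the 34 members, against 26.2% of all genes. Changes were at least 1.5-fold for 9 members (4.35% of all genes) and at least 2-fold for 3 (1.4% of all genes), Gsta4, Gsta2 and Gclm. In such bulk samples, more cells of a type cannot be told apart from more RNA per cell, nor fewer cells from less RNA per cell.

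**Figure D1:**
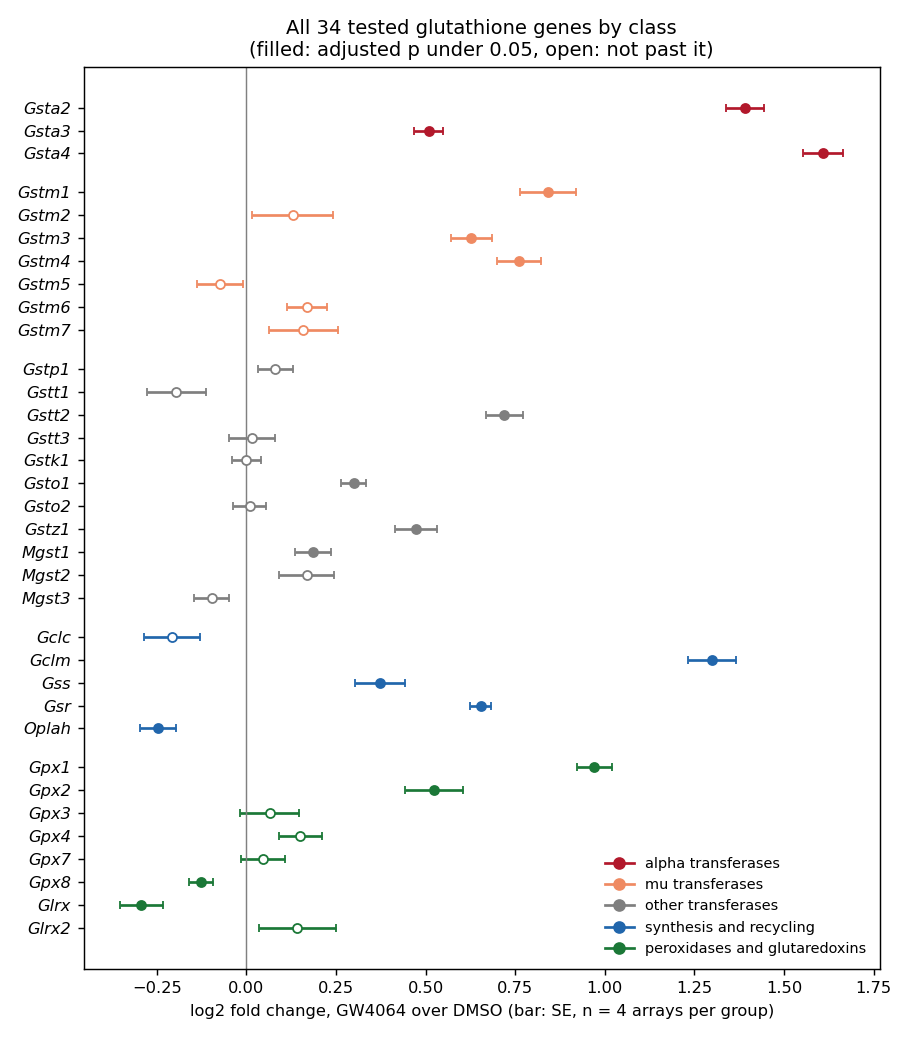
Log2 fold change of GW4064 over DMSO (horizontal axis) for the 34 tested genes, grouped and coloured by class; bars are standard errors with n = 4 arrays per group, filled points passed an adjusted p of 0.05 in limma. All 3 alpha transferases, 3 of 7 mu transferases and 3 of 5 synthesis genes lie to the right as filled points, and Oplah, Gpx8 and Glrx are filled to the left.

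Levels below are log2 of the processed signal minus the 75th percentile of the same array, so that 0 is the level of a probe at that percentile. A level belongs to 1 probe and says nothing about the amount of 1 transcript against another. Fold changes are differences of these levels, GW4064 minus DMSO, with standard errors from the fit.

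The alpha-class transferases, which conjugate electrophiles and reduce lipid hydroperoxides and are abundant in proximal tubule, all rose where measured (3 of 3 tested, median log2 fold change 1.39). Over all tested genes 11.8% rose. Gsta4, which clears the lipid peroxidation product hydroxynonenal, had levels of 1.97, 1.95, 1.96 and 1.82 with GW4064, against 0.23, 0.40, 0.25 and 0.38 with DMSO. It was 3.05-fold higher (log2 fold change 1.61 ± 0.06, adjusted p = 1.11e-06 in limma), the largest rise among the 34. The groups lay far apart, and the fourth GW4064 array was the lowest of its group. The Gsta4 probe was printed in 10 spots on each array, and the SD between those spots was 0.03 to 0.06, below the difference between the groups on every array.

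Gsta2, another alpha transferase, had levels of 5.76, 5.76, 5.80 and 5.87 with GW4064, against 4.43, 4.49, 4.28 and 4.43 with DMSO. It was 2.62-fold higher (1.39 ± 0.05, adjusted p = 1.79e-06 in limma), with no overlap. No probe was matched by accession to Gsta1, the close paralog of Gsta2, and probe sequences were not used here. Any Gsta1 signal on the Gsta2 probe therefore cannot be told apart from Gsta2. Gsta3, which in mice detoxifies activated aflatoxin, had levels of 3.63, 3.62, 3.62 and 3.53 with GW4064, against 3.11, 3.08, 3.03 and 3.14 with DMSO. It was 1.42-fold higher (0.51 ± 0.04, adjusted p = 8.75e-05 in limma), again with no overlap. A second Gsta3 probe gave 0.45 ± 0.05 and also passed in a fit over all 24723 kept probes, of which 15.4% passed (8.43% higher, 7.01% lower).

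**Figure D2:**
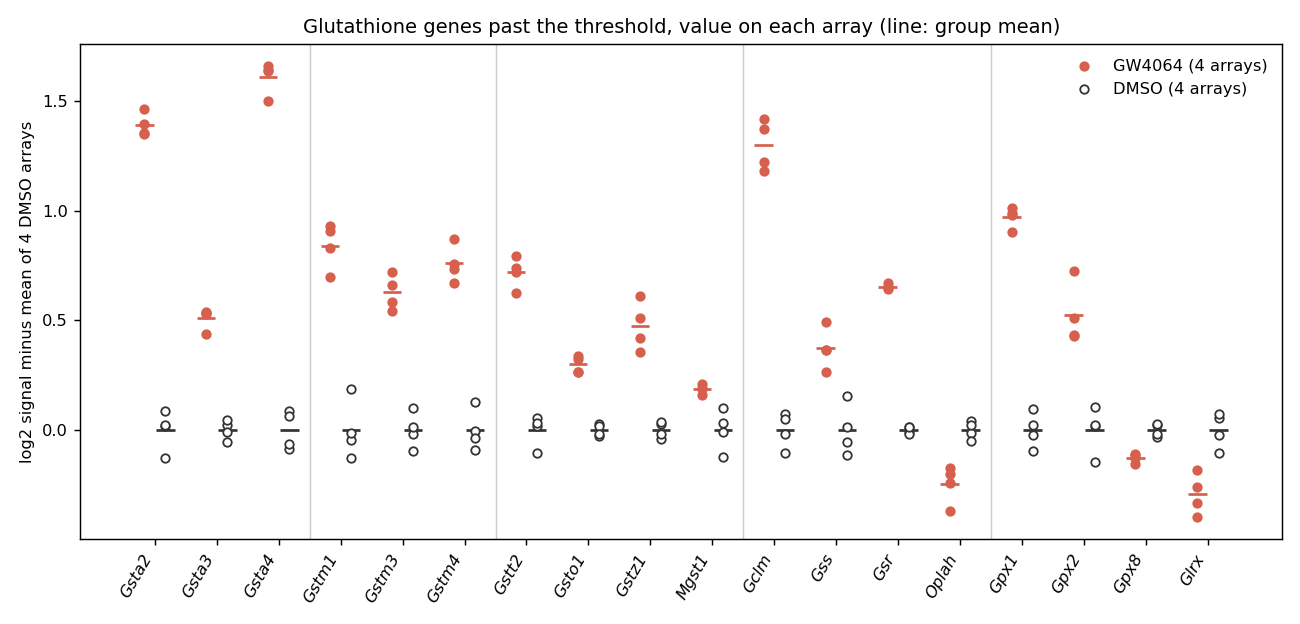
Level on each of the 8 arrays, minus the mean of the 4 DMSO arrays (vertical axis, log2), for the 18 glutathione genes past the threshold; filled points are GW4064 arrays, open points DMSO arrays, short lines group means and vertical lines separate the 5 classes. No GW4064 point overlaps a DMSO point of the same gene, and the distance is widest for Gsta4, Gsta2 and Gclm and narrowest for Gpx8 and Mgst1.

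The mu-class transferases, cytosolic enzymes that also conjugate electrophiles, split: 3 of 7 rose, 0 fell and 4 did not pass (median log2 fold change 0.17). The share that rose was 42.9%, against 11.8% of all genes. Gstm1 had levels of 4.73, 4.97, 4.94 and 4.86 with GW4064, against 4.22, 3.99, 4.02 and 3.90 with DMSO. It was 1.79-fold higher (0.84 ± 0.08, adjusted p = 0.000197 in limma), and the first DMSO array was the highest of its group yet below every GW4064 array. A second Gstm1 probe gave nearly the same value (0.83 ± 0.05).

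Gstm4 had levels of 1.24, 1.44, 1.30 and 1.33 with GW4064, against 0.70, 0.57, 0.53 and 0.48 with DMSO, on the brighter of its 2 probes. That probe was 1.69-fold higher (0.76 ± 0.06, adjusted p = 9.28e-05 in limma), without overlap. The dimmer Gstm4 probe did not follow it, at -1.06, -0.99, -0.97 and -0.88 with GW4064 and -0.92, -0.93, -0.94 and -1.03 with DMSO (-0.02 ± 0.05, adjusted p = 0.785 in the fit over all probes). The rise of Gstm4 therefore rests on 1 of its 2 probes, and the mean of both gave 0.37 ± 0.05.

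Gstm3 had levels of 1.67, 1.73, 1.59 and 1.55 with GW4064, against 1.11, 0.99, 1.02 and 0.91 with DMSO, on its brighter probe. It was 1.55-fold higher (0.63 ± 0.06, adjusted p = 0.00017 in limma), without overlap. Its other probe was well above background on all 4 GW4064 arrays and on 0 of 4 DMSO arrays, with means of -4.12 in GW4064 samples and -6.41 in DMSO samples. The rise on that probe was at least 4.35-fold, a bound against the lowest signal well above background or the probe's own, whichever was higher on each DMSO array. That probe passed the filter on dim probes only through the GW4064 arrays, so it had to differ and is given as a description.

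The other mu genes did not pass. Gstm2 had a log2 fold change of 0.13 ± 0.11 (adjusted p = 0.462), with 3 probes between 0.13 and 0.19. Gstm6 had 0.17 ± 0.06 (adjusted p = 0.0675), and its 3 probes gave nearly equal values of 0.17 to 0.18. Gstm7, on a dim probe, had 0.16 ± 0.10, and Gstm5 had -0.07 ± 0.07. In the gene table the 7 mu genes are consecutive coding genes on chromosome 3, in the order Gstm5, Gstm7, Gstm6, Gstm3, Gstm2, Gstm1 and Gstm4, so those that rose and those that did not pass lie next to each other. Mu transferases are close in sequence, and whether their probes share signal was not tested.

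**Figure D3:**
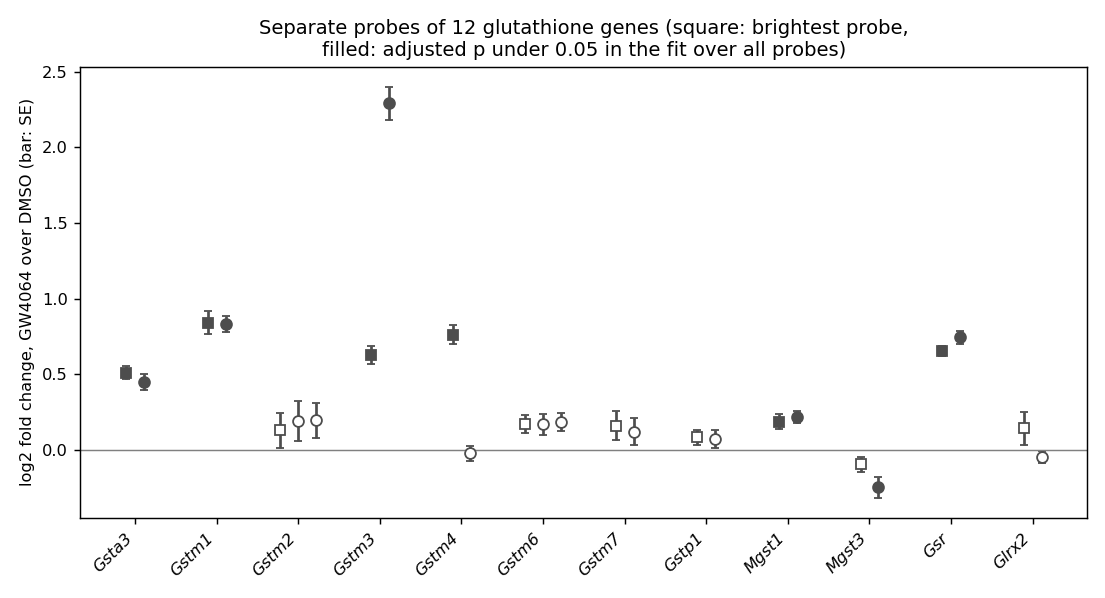
Log2 fold change of GW4064 over DMSO (vertical axis) for each kept probe of the 12 glutathione genes with several; squares are the brightest probe of a gene, circles its other probes, bars standard errors, and filled symbols passed an adjusted p of 0.05 in a fit over all 24723 kept probes. Probes of 10 genes had the same call, and those of Gstm4 and Mgst3 did not. Among the 10, probes of Gstm2, Gstm6, Gstm7, Gstp1 and Glrx2 shared only the call of not passing. Both probes of Gsta3, Gstm1, Mgst1 and Gsr rose. The highest circle, of Gstm3, is a fitted value of a probe that was not well above background with DMSO and was kept only through GW4064.

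Among the 11 other transferases, 4 rose (36.4%, against 11.8% of all genes), 0 fell and 7 did not pass (median log2 fold change 0.08). Gstt2, a theta-class enzyme, had levels of 3.70, 3.62, 3.53 and 3.64 with GW4064, against 2.95, 2.92, 2.80 and 2.93 with DMSO. It was 1.65-fold higher (0.72 ± 0.05, adjusted p = 5.58e-05 in limma), without overlap. Its theta neighbours on chromosome 10 did not pass: Gstt1 had -0.20 ± 0.08 (adjusted p = 0.138) and Gstt3 0.02 ± 0.07 (adjusted p = 0.891).

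Gstz1, the zeta-class enzyme that isomerises maleylacetoacetate in tyrosine breakdown, had levels of 2.26, 2.35, 2.19 and 2.45 with GW4064, against 1.80, 1.87, 1.82 and 1.87 with DMSO. It was 1.39-fold higher (0.47 ± 0.06, adjusted p = 0.000883 in limma), and the GW4064 arrays were the more spread. Gsto1, an omega-class enzyme that reduces dehydroascorbate, had levels of 5.33, 5.39, 5.40 and 5.33 with GW4064, against 5.09, 5.08, 5.03 and 5.05 with DMSO. It was 1.23-fold higher (0.30 ± 0.04, adjusted p = 0.000694 in limma), without overlap, while Gsto2, the adjacent gene, had 0.01 ± 0.05 (adjusted p = 0.922).

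Mgst1, a membrane-bound transferase of the endoplasmic reticulum and mitochondria, had levels of 3.14, 3.12, 3.12 and 3.09 with GW4064, against 2.96, 2.80, 2.92 and 3.03 with DMSO. The groups did not overlap, but they were separated by less than the spread of the DMSO arrays. It was 1.14-fold higher (0.19 ± 0.05, adjusted p = 0.0339 in limma), a call lost in 16 of 23 other settings and on leaving out any 1 array other than the fourth DMSO array. Its other probe gave 0.22 ± 0.04 (adjusted p = 0.00868 in the fit over all probes).

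The remaining transferases did not pass. The membrane-bound Mgst2 had 0.17 ± 0.08 (adjusted p = 0.159) and Mgst3 -0.10 ± 0.05 (adjusted p = 0.197). The dimmer Mgst3 probe was lower, at -0.25 ± 0.07 (adjusted p = 0.0456 in the fit over all probes), so the 2 probes of Mgst3 differ in their call. The pi-class Gstp1 had 0.08 ± 0.05 (adjusted p = 0.275) and the mitochondrial and peroxisomal Gstk1 0.00 ± 0.04 (adjusted p = 0.997). Gstp2, a close relative of Gstp1 outside the 35, had 0.13 ± 0.05 and did not pass either (adjusted p = 0.0946).

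In synthesis and recycling, 3 of 5 genes rose (60%), 1 fell (20%) and 1 did not pass (median log2 fold change 0.37). Of all tested genes 11.8% rose and 8.95% fell. The subunits of glutamate-cysteine ligase parted. Gclm, the modifier subunit of this first and rate-limiting step, had levels of 2.38, 2.43, 2.19 and 2.23 with GW4064, against 0.90, 1.08, 0.99 and 1.06 with DMSO. It was 2.46-fold higher (1.30 ± 0.07, adjusted p = 7.94e-06 in limma), with a wide gap between the groups. Gclc, the catalytic subunit, had levels of 2.81, 2.84, 2.59 and 2.57 with GW4064, against 2.87, 2.82, 3.03 and 2.93 with DMSO. Its groups overlapped, its log2 fold change was -0.21 ± 0.08 and it did not pass (adjusted p = 0.0996 in limma). The Gclc difference was -0.01 on slide 1 and -0.40 on slide 2, while that of Gclm was 1.41 and 1.19.

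Gss, glutathione synthetase, which adds the glycine, had levels of 3.12, 2.98, 2.98 and 2.89 with GW4064, against 2.51, 2.78, 2.57 and 2.63 with DMSO. It was 1.29-fold higher (0.37 ± 0.07, adjusted p = 0.00773 in limma), without overlap. Gsr, glutathione reductase, had levels of 3.92, 3.91, 3.93 and 3.92 with GW4064, against 3.25, 3.28, 3.25 and 3.28 with DMSO. It was 1.57-fold higher (0.65 ± 0.03, adjusted p = 4.96e-06 in limma), with the lowest standard error among the 34, and its other probe gave 0.74 ± 0.05. Oplah, the oxoprolinase that returns glutamate to the cycle, had levels of 2.41, 2.47, 2.28 and 2.44 with GW4064, against 2.69, 2.63, 2.67 and 2.59 with DMSO. It fell without overlap, by 0.25 ± 0.05 on the log2 scale or 1.19-fold (adjusted p = 0.0112 in limma). The Oplah call was lost in 4 of 23 other settings, each slide alone and 2 of the 3 normexp corrections, the one on 7 arrays giving -0.23 (adjusted p = 0.0619).

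Of the 8 peroxidases and glutaredoxins, 2 rose (25%), 2 fell (25%) and 4 did not pass (median log2 fold change 0.10). The shares over all tested genes were 11.8% higher and 8.95% lower. Gpx1, the cytosolic and mitochondrial selenoenzyme, had levels of 6.73, 6.69, 6.62 and 6.70 with GW4064, against 5.74, 5.81, 5.62 and 5.69 with DMSO. It was 1.96-fold higher (0.97 ± 0.05, adjusted p = 7.93e-06 in limma), without overlap. Gpx2, the peroxidase best known from gut epithelium, was dim, with levels of -3.43, -3.35, -3.14 and -3.43 with GW4064, against -3.85, -3.84, -3.76 and -4.01 with DMSO. It was 1.44-fold higher (0.52 ± 0.08, adjusted p = 0.00279 in limma), without overlap. With normexp background correction in place of the scanner's, its change was -0.13 (adjusted p = 0.883), where 6 spots with a bright local background set the fit of the third DMSO array apart; it was 0.38 (adjusted p = 0.00364) with those backgrounds replaced and 0.40 (adjusted p = 0.00673) on the 7 other arrays.

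Gpx8, a peroxidase of the endoplasmic reticulum, had levels of 1.52, 1.54, 1.49 and 1.53 with GW4064, against 1.67, 1.62, 1.63 and 1.67 with DMSO. It fell by 0.13 ± 0.03 on the log2 scale (1.09-fold, adjusted p = 0.0284 in limma), a call lost in 14 of 23 other settings and on leaving out any 1 array other than the third DMSO or the fourth GW4064 array. Glrx, the cytosolic glutaredoxin that removes glutathione from proteins, had levels of -0.56, -0.71, -0.63 and -0.77 with GW4064, against -0.40, -0.32, -0.48 and -0.30 with DMSO. It fell by 0.29 ± 0.06 (1.23-fold, adjusted p = 0.011 in limma), and its groups did not overlap. The Glrx call was lost in 3 of 23 other settings, the planned normexp correction and each slide alone.

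The other peroxidases had small differences. Gpx3, the secreted plasma form made mainly by proximal tubule, had 0.07 ± 0.08 (adjusted p = 0.618), and Gpx4, which reduces phospholipid hydroperoxides in membranes, had 0.15 ± 0.06 (adjusted p = 0.12). Gpx7, the other peroxidase of the endoplasmic reticulum, had 0.05 ± 0.06 (adjusted p = 0.642). Glrx2, the mitochondrial glutaredoxin, had 0.14 ± 0.11 on its bright probe (adjusted p = 0.394) and -0.05 ± 0.04 on another, and the remaining probe was not well above background on any array. Mean levels with DMSO were far apart, at 7.96 on the bright probe, 2.02 on the next and -7.53 on the remaining probe. Whether the bright probe reads only Glrx2 was not tested.

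Differences on the slides lay close for most members. Of the 34, 30 had the same sign on slide 1 and slide 2, and Gstk1, Gsto2, Gpx3 and Glrx2, none of which passed, did not. For the 18 that passed, whose groups did not overlap, an equal sign on both slides follows from that separation. Across the 34 genes the slide differences had a Pearson r of 0.957, and across all 14476 genes 0.757; genes are not independent, and the arrays of a slide share their hybridisation. With 2 arrays per group, slide 1 alone passed 11 members (6.67% of all genes) and slide 2 alone 8 (1.52% of all genes), all of them higher.

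**Figure D4:**
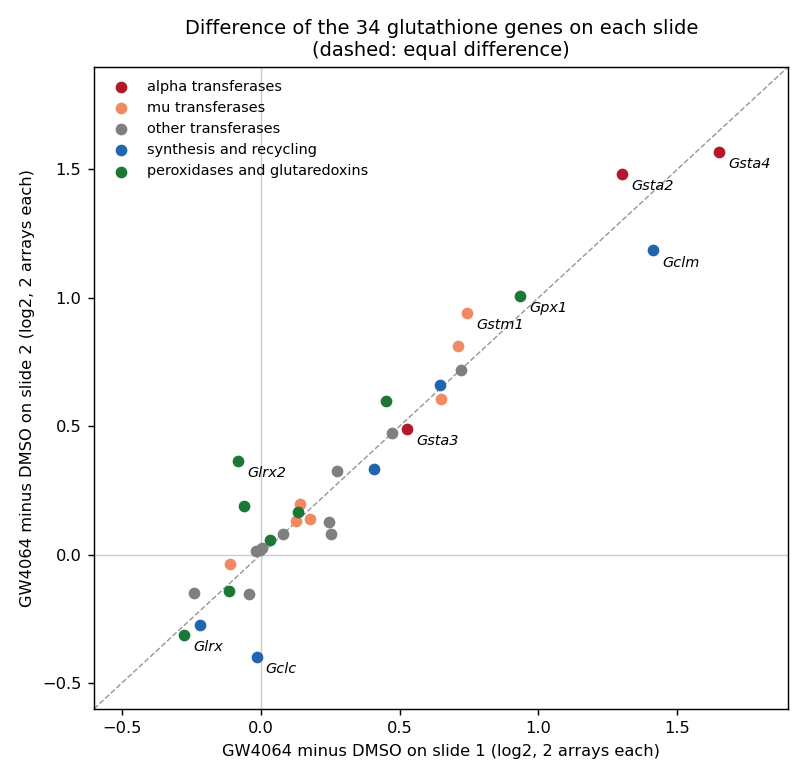
GW4064 minus DMSO on slide 1 (horizontal axis) and on slide 2 (vertical axis), in log2 units with 2 arrays per group on each slide, for the 34 tested genes coloured by class; the dashed line marks equal differences. The genes with the larger rises lie near the line on both slides, Gclc lies at -0.01 and -0.40, and Glrx2 lies at -0.08 and 0.37.

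Genes that feed, drain or regulate the glutathione pool were counted from 6 lists outside the 35. Of 70 listed genes 67 were tested, 18 rose, 4 fell and 45 did not pass, so 32.8% passed, against 20.8% of all tested genes, with a median log2 fold change of 0.06. The lists were chosen with earlier results of these data known. A share above that of all genes may come from that choice, which was not tested. No probe was matched by accession to Nnt or Gsto3, and Dpep1 was too dim to test.

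In the list of cysteine supply and glutathione breakdown, 6 of 15 rose (40%, against 11.8% of all genes), 1 fell and 8 did not pass. Anpep, the brush border aminopeptidase N, which can split cysteinylglycine, was 2.96-fold higher (1.57 ± 0.14). Ggt1, the brush border gamma-glutamyltransferase that opens extracellular glutathione, was 1.82-fold higher (0.87 ± 0.05). The related Ggt6 was 1.37-fold higher and Cndp2, a cytosolic dipeptidase acting on cysteinylglycine, 1.23-fold higher. The other 2 that rose, Slc1a1, a carrier of glutamate and cysteine (0.46 ± 0.11), and Cth of transsulfuration (0.19 ± 0.06), and the 1 that fell, Cbs, the step before Cth (-0.33 ± 0.07), were named after their values were seen. Anpep is also a marker of the proximal tubule brush border.

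Export and the regulators held a few further rises. In the export list 2 of 8 rose (25%, against 11.8% of all genes) and 0 fell. Abcc2, the apical pump for glutathione conjugates, was 1.52-fold higher (0.60 ± 0.07), and Slc25a39, which carries glutathione into mitochondria, 1.19-fold higher. Abcc1, a basolateral conjugate pump, had 0.17 ± 0.05 and did not pass (adjusted p = 0.0546). In the list of regulators and known NRF2 targets 4 of 11 rose (36.4%, against 11.8% of all genes) and 0 fell (against 8.95%). The other 7 did not pass. Osgin1, an oxidative stress response gene, was 6.21-fold higher (2.64 ± 0.05) and Nqo1, a quinone reductase, 1.85-fold higher (0.89 ± 0.05). Mafg, a small Maf partner of NRF2, was 1.24-fold higher and Sqstm1, an autophagy adaptor, 1.18-fold higher. Hmox1, heme oxygenase and another known NRF2 target, named after its values were seen, had -0.36 ± 0.13 and did not pass (adjusted p = 0.0919). Nfe2l2, the gene of NRF2, had 0.03 ± 0.05 (adjusted p = 0.696 in limma) and Keap1 -0.08 ± 0.08 (adjusted p = 0.535 in limma). Nfe2l1, Mafk, Maff and Bach1 did not pass either.

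Changes in the lists of NADPH supply, thioredoxins and other glutathione-using enzymes were all under 1.5-fold. In the NADPH list 37.5% passed, against 20.8% of all genes: 2 of 8 rose, Pgd of the pentose phosphate pathway (0.24 ± 0.04) and Taldo1 (0.30 ± 0.05), and Idh2, a mitochondrial NADPH source, fell by 0.18 ± 0.05. Idh1, its cytosolic counterpart, had 0.32 ± 0.12 and did not pass (adjusted p = 0.0896). In the thioredoxin and peroxiredoxin list 30.8% passed, and the share that rose, 15.4%, was near the 11.8% of all genes: 2 of 13 rose, Txnrd1 (0.33 ± 0.04) and Txnrd2 (0.21 ± 0.06), the cytosolic and mitochondrial thioredoxin reductases. Txnip, an inhibitor of thioredoxin, fell by 0.21 ± 0.04 and Txnrd3 by 0.21 ± 0.06. In the list of glyoxalase and other glutathione-dependent enzymes 2 of 12 rose (16.7%, also near the share of all genes), Clic4, of a channel family with a transferase-like fold (0.29 ± 0.07), and Esd, which hydrolyses formylglutathione (0.16 ± 0.04). Clic1 had -0.11 ± 0.05 and Glrx5 0.15 ± 0.06, and neither passed.

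**Figure D5:**
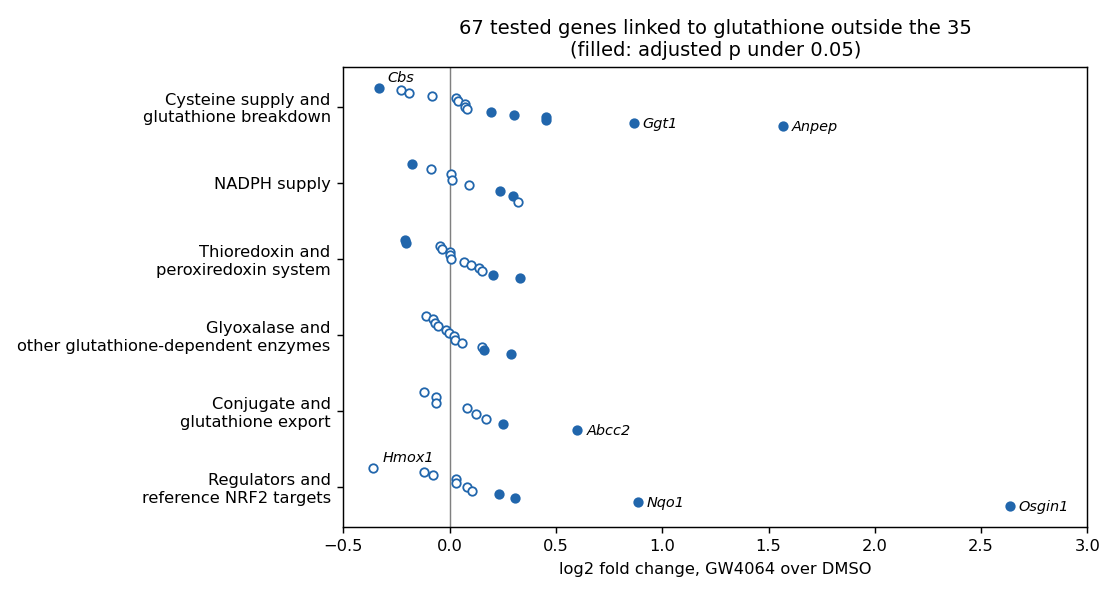
Log2 fold change of GW4064 over DMSO (horizontal axis) for the 67 tested genes of 6 lists linked to glutathione outside the 35; each point is a gene, spread within its list by rank, and filled points passed an adjusted p of 0.05 in limma. Osgin1 at 2.64, Anpep at 1.57, Nqo1 at 0.89 and Ggt1 at 0.87 stand to the right of the other points.

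Cell type markers of 5 lists were counted in the same fit, in which 11.8% of all tested genes rose and 8.95% fell. Of 16 tested proximal tubule markers 13 rose (81.2%) and 0 fell. Their mean level per array was 2.10 to 2.43 in GW4064 samples, against 1.07 to 1.52 in DMSO samples, and all 16 were well above background on every array. Slc22a8, the remaining proximal tubule marker, was too dim to test. Among 11 markers of leukocytes and macrophages, 6 rose (54.5%) and 0 fell, with mean levels of -1.62 to -1.47 in GW4064 samples and -1.93 to -1.63 in DMSO samples. Of 8 endothelial markers 4 rose, or 50%, and 0 fell (-1.61 to -1.49 in GW4064 samples, -2.00 to -1.80 in DMSO samples), and Tek was not well above background on any array. Of 8 fibroblast and smooth muscle markers 3 rose, or 37.5%, and 0 fell (0.12 to 0.26 in GW4064 samples, -0.18 to 0.09 in DMSO samples), and Lum was not well above background on any array. Of 9 tested markers of other nephron segments and podocytes 0 rose and 2 fell, or 22.2% (-3.42 to -3.16 in GW4064 samples, -3.21 to -3.06 in DMSO samples). The part of these shifts in the glutathione results was not tested.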

How the data were processed

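Cy3-labelled RNA of 4 GW4064 and 4 DMSO samples was measured on one-colour Agilent arrays. Spot brightness was deposited as intensity, with background subtracted by the scanner software, which the file headers give as Feature Extraction 10.7.3.1. Version 10.7 of that software and limma are named in the submitters' processing notes. The authors also deposited a table of log2 values, used as an alternative only; its normalization is not given in the sources used here. Each array held 44397 spots. Control spots (1377) and spots marked as outliers (98 to 174 per array) were left out, spots of a probe were averaged as log2 of the processed signal, and the array's 75th percentile was subtracted. Probes well above background on at least 4 of 8 arrays, with no array having all its spots marked, were kept (24723), and the brightest per gene was tested (14476 genes). Accessions, without versions, were matched to the mouse gene table of GRCm38.p6, which named 27234 probes (69.1%); the headers name build mm9, so coordinates are given for promoter windows only.

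The comparison of GW4064 with DMSO used R 4.3.3 and limma 3.58.1 (functions lmFit, then eBayes; two-sided, Benjamini-Hochberg adjustment over all genes, threshold 0.05, no covariate), and the fit was tested on simulated data. The number of arrays limits the precision. All 35 genes were accounted for, levels on every array were given for those past the threshold and for Gclc, and up to 4 genes with the smallest p were named per linked list (the values of 1 gene that this rule takes are not reported here); other genes and probes outside this rule were named after their values were seen. The members and the lists were chosen with earlier results of these data known. A planned comparison of protein identity between members was not run, since no protein sequences were used here. Alternatives covered background correction, normalization, filters, probes per gene, replicate number and slide as blocks, fit options, the deposited table and leaving out each array.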

Additional observations from a re-analysis of the deposited data

Results flagged for a closer look

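In 5 of 96 groups of 4 arrays (5.21%), 1 array stood apart from the other 3 of its group by Dixon's criterion at 95%; chance gives about 1 in 20. The fourth GW4064 array was the lowest of its group for Gsta3 (level 3.53, the others 3.62 to 3.63) and for Gsta4 (1.82, the others 1.95 to 1.97), and both stayed above every DMSO array. The third GW4064 array was lowest on a dim probe of Gstm6 (-2.79, the others -2.69 to -2.68). The fourth DMSO array was lowest on the probe of Gstm4 that did not move (-1.03, the others -0.94 to -0.92). On the Gstm3 probe that was not well above background with DMSO, the first DMSO array was highest (-6.22, the others -6.49 to -6.45).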

How the results depend on the processing

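Of the 18 genes past the threshold, 5 kept their call in all 23 other settings (Gsta2, Gsta4, Gclm, Gpx1 and Gstm4, the last at 0.37 in place of 0.76 with the mean of its 2 probes) and 13 lost it in at least 1. Mgst1 lost it in 16, Gpx8 in 14, Oplah in 4, and Gss, Gsto1 and Glrx in 3 each. Gsta3, Gstz1 and Gpx2 lost it with planned normexp correction and on slide 2 alone. Gstm1 lost it with planned normexp correction and on slide 1 alone. Gstm3 lost it on slide 2 alone, and Gstt2 and Gsr only with planned normexp correction. Of the 16 that did not pass, 3 passed in some: Gstm6 without the first DMSO array (0.22, adjusted p = 0.0124) and in 2 other fits, Gstt1 without the third DMSO array (-0.26, adjusted p = 0.036) and with normexp on the same 7 arrays, and Gpx4 with slide as a block (adjusted p = 0.0379). Planned normexp correction left 120 genes of the whole array past the threshold and 6 glutathione genes, 6 higher and 0 lower, with a median log2 fold change of 0.24, and Gpx2 at -0.13 (0.38 and 0.40 in the 2 added forms below). There the fitted background mean of the third DMSO array was -1089, against -15.5 to -3.82 on the others; 6 of its spots, none a glutathione probe, had a local background above their signal by more than 100. With those 6 backgrounds replaced, 2247 genes and 17 glutathione genes passed (15 higher, 2 lower), and on the 7 other arrays 2045 and 16 (14 higher, 2 lower), both chosen after seeing the data. Slide 1 alone passed 966 genes and 11 glutathione genes (0 lower), and slide 2 alone 220 and 8 (8 higher, 0 lower), with 2 arrays per group. Leaving out 1 array gave 2076 to 2827 genes, 16 to 18 glutathione genes, 14 to 15 higher, 2 to 4 lower and medians of 0.14 to 0.20.

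Deviations of samples with the same replicate number had correlations of -0.13, -0.03, 0.19 and -0.02. Those of samples with different numbers ran from -0.20 to 0.20. Such values cannot settle whether the numbers pair the samples, and the labels do not say. With a replicate block 2322 genes and 16 glutathione genes passed. Probes of close paralogs may share signal, which was not tested.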
